A study of Mus musculus with 14 samples.

Results

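The 8 genes described here encode enzymes of cholesterol synthesis, namely Hmgcs1, Idi1, Fdps, Fdft1, Sqle, Lss, Cyp51 and Hsd17b7. They were taken by name as a family because Hsd17b7 had a higher level in one group of the AAV experiment, so the values of that experiment chose them. All 8 were listed among the 42396 genes of both count tables. Genes of cholesterol uptake are not among them, although the family was first put together under the heading of synthesis and uptake, and uptake genes appear below only as part of the wider pathway.

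Whole hearts of 14 female mice were profiled by bulk RNA-seq in 2 experiments. All mice were described as FS6KD, that is, with a gene trap that knocks down Ndufs6, a subunit of mitochondrial complex I, on a mixed C57BL/6J and 129/Ola background. The knockout experiment compared Atf3+/+FS6KD with Atf3-/-FS6KD hearts at 12 weeks (4 each). The Atf3-/- allele is a germline deletion made with Cas9 and guides in exon 2 and exon 4, passed on by intercrossing founders, so it is present in every cell type. In the AAV experiment, 3 hearts were labelled MyoAAV2-shCtrl and 3 MyoAAV2-shAtf3, meaning that a muscle-directed adeno-associated virus with a control hairpin or with one against Atf3 was given to neonatal FS6KD mice. The labels of these 6 samples give no age of their own, no promoter of the hairpin and no measure of how many cells the virus reached.

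Cholesterol is built from acetyl-CoA. Hmgcs1 takes part in making mevalonate, Idi1 and Fdps turn it into farnesyl diphosphate, Fdft1 and Sqle commit it to sterols, Lss closes the ring to lanosterol, and Cyp51, Msmo1, Nsdhl, Hsd17b7 and further enzymes trim lanosterol to cholesterol. When sterols in the endoplasmic reticulum run low, Scap carries the membrane-bound factor SREBP-2, encoded by Srebf2, to the Golgi, where it is cut and released to switch on these genes, whereas Insig proteins hold it back. The same precursors feed ubiquinone, the electron carrier that accepts electrons from complex I.

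Start site regions were found for 5 of the 8 genes in the RefSeq promoter table of GRCm38.p6, which gives 250 bases before and 50 after each start. Sqle, Fdps and Fdft1 had no entry. Of the 5, 3 are printed. Hmgcs1 is shown as the earliest of the 8 in the route and the one with a sterol element core, Cyp51 as the gene nearest to the mean of the others, and Hsd17b7 as the gene the family was chosen by. The windows are chr13:119690101-119690400 on the plus strand for Hmgcs1, chr5:4104648-4104947 on the minus strand for Cyp51 and chr1:169969156-169969455 on the minus strand for Hsd17b7, each written 5′ to 3′ along the gene. Capitals mark letters that match, on either strand, the sterol regulatory element core CACCCCAC, the CCAAT box CCAAT, the GC box GGGCGG or the E-box CACGTG.
Hmgcs1: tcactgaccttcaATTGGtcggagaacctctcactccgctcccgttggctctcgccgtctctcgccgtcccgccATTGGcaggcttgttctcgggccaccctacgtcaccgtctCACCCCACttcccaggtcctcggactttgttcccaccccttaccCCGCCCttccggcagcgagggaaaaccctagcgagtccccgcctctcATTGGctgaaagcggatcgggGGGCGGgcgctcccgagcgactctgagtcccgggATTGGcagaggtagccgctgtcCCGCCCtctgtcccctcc
Cyp51: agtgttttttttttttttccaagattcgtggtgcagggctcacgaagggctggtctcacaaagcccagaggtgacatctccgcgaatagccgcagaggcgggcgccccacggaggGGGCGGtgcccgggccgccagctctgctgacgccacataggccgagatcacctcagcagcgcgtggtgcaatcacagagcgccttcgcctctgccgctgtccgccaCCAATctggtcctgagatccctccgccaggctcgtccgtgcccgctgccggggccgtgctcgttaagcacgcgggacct
Hsd17b7: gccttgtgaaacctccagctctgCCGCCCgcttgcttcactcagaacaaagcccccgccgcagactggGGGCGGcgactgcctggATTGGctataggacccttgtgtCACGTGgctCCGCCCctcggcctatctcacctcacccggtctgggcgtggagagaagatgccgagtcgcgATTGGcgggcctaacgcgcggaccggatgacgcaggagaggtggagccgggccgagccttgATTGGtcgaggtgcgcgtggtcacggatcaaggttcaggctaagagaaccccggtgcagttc

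The sterol element core stood in Hmgcs1 at position -136 (the first base of the match, counted along the gene with -1 just before the start) and in none of the other 4 windows, and 2.87% of the 32851 promoters of the table held it. With at most 1 mismatch, it was found in the windows of Hmgcs1, Cyp51, Idi1 and Hsd17b7 but not Lss, beside 32.6% of all promoters. All 5 windows had a CCAAT box, which 37.4% of all promoters had. Hsd17b7 carried 3 of them, at positions -165, -73 and -12, and Hmgcs1 carried 4. The GC box was likewise present in all 5, beside 35.7% of all promoters. The E-box was found in Hsd17b7 alone among the 5, at position -143, beside 7.15% of all promoters. The ATF site TGACGTCA was not in these 5 windows, and 1.79% of all promoters held it. No matches of different motifs overlapped in the 5 windows. These are matches of letters and not measured binding sites.

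The libraries of the knockout experiment held 33914931 to 134920825 counts, and replicates 3 and 4 of each genotype were deeper than replicates 1 and 2. Those of the AAV experiment held 30085432 to 40534913 counts. Levels are given in CPM, counts relative to the size of the library, after TMM scaling, which evens out differences in library composition. Log2 fold changes set the libraries labelled Atf3-/-FS6KD or shAtf3 against their controls, and they come with an SE and a two-sided p from the quasi-likelihood test of edgeR, adjusted over all genes tested by the Benjamini-Hochberg method. Heart muscle markers were abundant in every library, with Tnnt2 at 5125 to 8161 CPM. Ndufs6 stood at 2.34 to 3.79 CPM over all libraries. In replicate order, the 4 Atf3+/+FS6KD libraries held 25.8, 6.89, 6.91 and 6.36 CPM of Atf3 and the 4 labelled Atf3-/-FS6KD held 25.6, 37.6, 22.7 and 14.3 CPM, so its gene-level count was not lower in the libraries labelled Atf3-/-FS6KD (log2 fold change 1.14, SE 0.49, adjusted p 0.480 in edgeR, and 1.89 without Atf3+/+FS6KD replicate 1). Exonic sequence outside the deletion still counts to the gene, so this value does not test the deletion. In the AAV experiment, Atf3 stood at 10.1, 13.3 and 14.1 CPM in the libraries labelled shCtrl and at 21.2, 12.1 and 16.5 CPM in those labelled shAtf3 (log2 fold change 0.41, SE 0.19, adjusted p 0.420 in edgeR, and 0.20 without replicate 1 labelled shAtf3). That table also names its columns the other way round from the labels, so every direction given for the AAV experiment holds only if the labels are right, and no direction in the knockout experiment is backed by the count of Atf3.

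The enzymes differed widely in level. Per kilobase of all annotated exons (RPKM, with the exon lengths of GENCODE M21), Fdft1 and Hmgcs1 stood highest in all 4 groups, at 14.6 ± 2.23 and 11.2 ± 1.03 RPKM (SD, n = 4) in Atf3+/+FS6KD. Hsd17b7 followed at 6.64 ± 1.17 RPKM, Cyp51 at 4.72 ± 0.60 RPKM and Fdps at 4.18 ± 0.12 RPKM (SD, n = 4 each). Idi1 was at 2.09 ± 0.39 RPKM, Sqle at 0.518 ± 0.088 RPKM and Lss at 0.276 ± 0.046 RPKM (SD, n = 4 each). In this group Fdft1 and Hmgcs1 overlapped between libraries, as did Hsd17b7 with Cyp51 and Cyp51 with Fdps, whereas every step from Fdps down to Lss separated all libraries. Idi1, Sqle and Lss took the last 3 places, in this order, in every group. The first 2 places changed hands, with Hmgcs1 first in the libraries labelled Atf3-/-FS6KD and Fdft1 first in the other 3 groups. Places 3 to 5 were held by Hsd17b7, Cyp51 and Fdps in an order that differed between groups, with Fdps at place 3 and Hsd17b7 at place 5 in the libraries labelled shCtrl and Hsd17b7 at place 3 in the other 3 groups. The order in the middle also depends on the exon model. Divided by the longest coding transcript, Fdps took place 3 in all 4 groups and Hsd17b7 place 4 or 5.

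The knockout comparison asked how these enzymes differ between FS6KD hearts with and without Atf3, and it was not used to choose them. No enzyme passed the threshold. At an adjusted p below 0.05, edgeR found 0 (0%) of 15592 genes and 0 of the 8. DESeq2 and limma-trend also called 0 of the 8, while DESeq2 called 208 of all genes. At an unadjusted p below 0.05, 2 of the 8 were found, Sqle with higher and Fdft1 with lower values in the libraries labelled Atf3-/-FS6KD, beside 10.1% of all genes. The groups overlapped for all 8 enzymes, while 5.71% of all genes had groups that did not overlap. The median log2 fold change of the 8 was 0.039, beside 0.00054 over all genes tested.

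**Figure D1:**
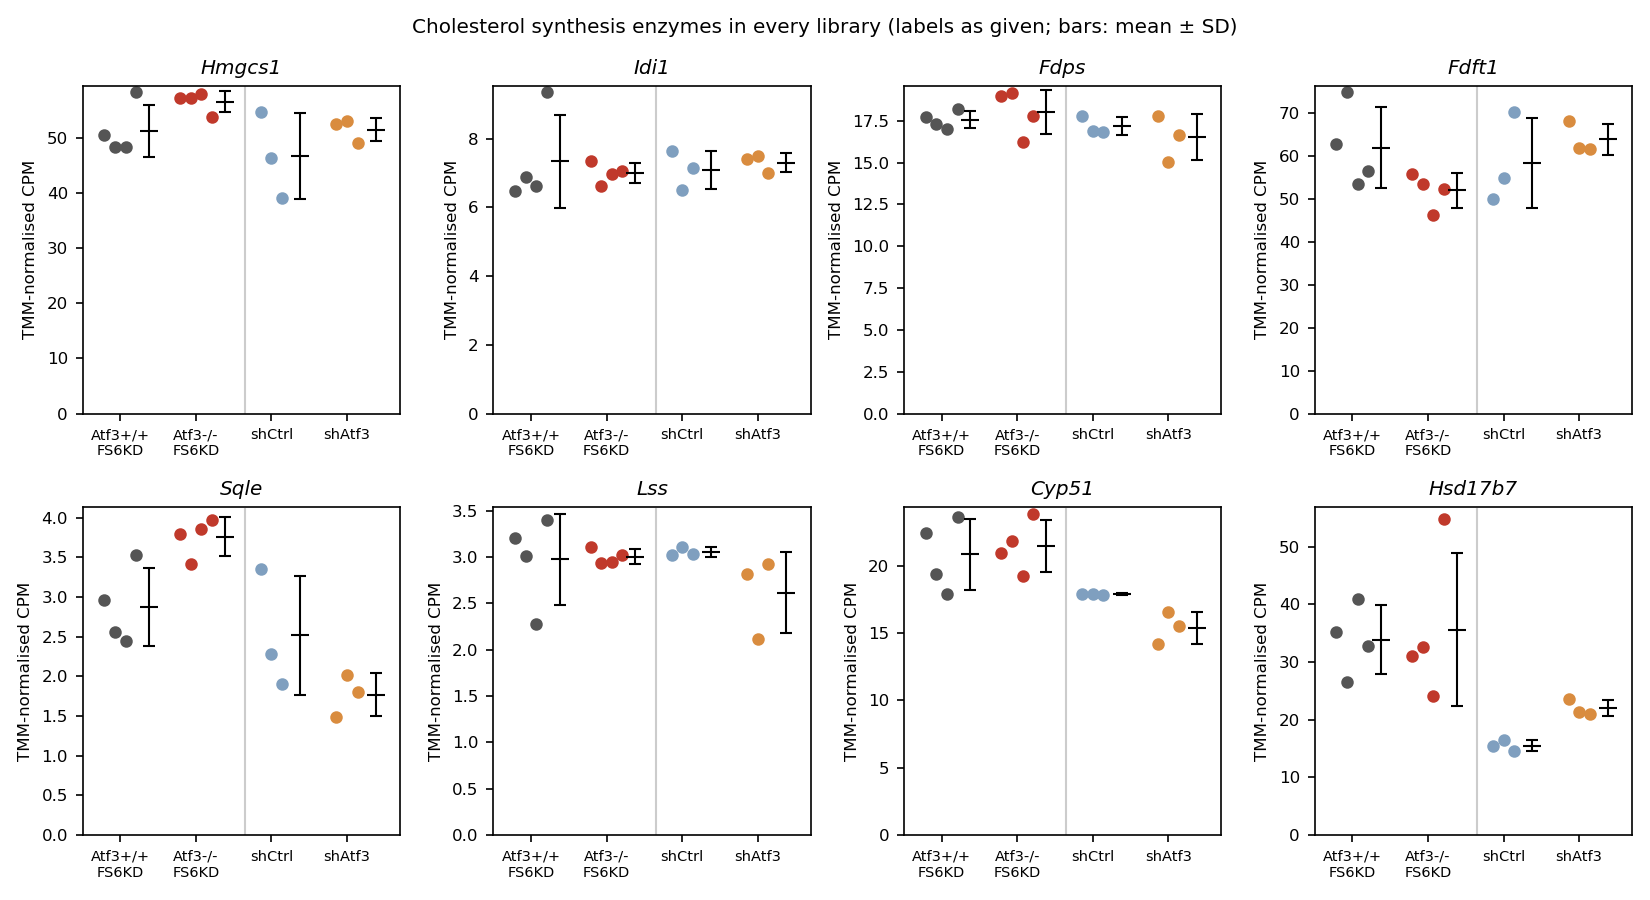
TMM-normalised CPM (vertical axes, from 0) of the 8 enzymes in pathway order, with each point 1 library and black bars the mean ± SD of a group; the left pair of groups is the knockout experiment (n = 4 each), the right pair the AAV experiment (n = 3 each). The points of Hsd17b7 lie between 14.6 and 23.6 CPM in the AAV experiment and between 24.1 and 54.8 CPM in the knockout experiment.

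Hmgcs1, which joins acetyl units into HMG-CoA, stood at 50.5, 48.4, 48.4 and 58.3 CPM in the 4 Atf3+/+FS6KD libraries. In the libraries labelled Atf3-/-FS6KD it was at 57.3, 57.3, 58.0 and 53.8 CPM. These 4 lay above Atf3+/+FS6KD replicates 1 to 3 and below replicate 4, the highest of all 8, and the log2 fold change was 0.14 (SE 0.071, adjusted p 0.548 in edgeR). It was 0.22 within the shallower replicates 1 and 2 and 0.066 within the deeper replicates 3 and 4. Idi1, which isomerises the isoprene unit, ranged from 6.48 to 6.89 CPM in Atf3+/+FS6KD replicates 1 to 3 and reached 9.36 CPM in replicate 4, against 6.62 to 7.35 CPM in the libraries labelled Atf3-/-FS6KD (log2 fold change -0.073, SE 0.13, adjusted p 0.869 in edgeR). Its sign followed that one library and was 0.071 without it. Fdps, which builds farnesyl diphosphate, was the steadiest of the family in this experiment, with its highest of 8 libraries 1.18 times its lowest, and its log2 fold change was 0.035 (SE 0.070, adjusted p 0.891 in edgeR).

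Fdft1, the squalene synthase, is the step at which the route turns to sterols. It was measured at 62.8, 74.7, 53.4 and 56.5 CPM in Atf3+/+FS6KD and at 55.7, 53.5, 46.1 and 52.3 CPM in the libraries labelled Atf3-/-FS6KD. The groups overlapped, and replicate 2 of Atf3+/+FS6KD was the highest of the 8 (log2 fold change -0.25, SE 0.11, edgeR p 0.0442, adjusted p 0.477). Sqle, the squalene epoxidase that follows it, had values of 2.97, 2.55, 2.45 and 3.53 CPM in Atf3+/+FS6KD and of 3.79, 3.41, 3.86 and 3.98 CPM in the libraries labelled Atf3-/-FS6KD. Atf3+/+FS6KD replicate 4 stood above the lowest library of the other group, and replicates 1 to 3 below all of it (log2 fold change 0.39, SE 0.14, edgeR p 0.0215, adjusted p 0.423). Consecutive enzymes of the sterol branch thus had values of opposite sign, and neither passed the threshold. Over 19 alternatives of the processing, the log2 fold change of Sqle stayed between 0.31 and 0.51 and that of Fdft1 between -0.33 and -0.15.

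Lss, which folds squalene epoxide into lanosterol, and Cyp51, which removes a methyl group from it, lay close to equal between genotypes. Their log2 fold changes were 0.017 (SE 0.14) and 0.042 (SE 0.10), with edgeR adjusted p of 0.977 and 0.915. Lss varied more between Atf3+/+FS6KD libraries (2.28 to 3.40 CPM) than between those labelled Atf3-/-FS6KD (2.94 to 3.11 CPM).

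Hsd17b7, the keto reductase that acts late in the removal of the methyl groups and also reduces estrone to estradiol, varied widely among the libraries labelled Atf3-/-FS6KD. The 4 Atf3+/+FS6KD libraries held 35.2, 26.5, 40.9 and 32.8 CPM, and the 4 labelled Atf3-/-FS6KD held 31.1, 32.5, 24.1 and 54.8 CPM. The lowest and the highest of the 8 libraries were both labelled Atf3-/-FS6KD, and its coefficient of variation there was 37.3%, while the other 7 enzymes had 2.64% to 8.94% in that group. That value includes replicate 4 at 54.8 CPM, and in Atf3+/+FS6KD the coefficient of 17.6% was below the 18.5% of Idi1. In the AAV groups it was 6.16% and 6.28%. The log2 fold change was 0.072 (SE 0.24, adjusted p 0.940 in edgeR). It became -0.22 (adjusted p 0.679) once Atf3-/-FS6KD replicate 4 was left out and -0.027 (adjusted p 0.986) without Atf3+/+FS6KD replicate 2, so the sign rested on those libraries. The higher level noted in the AAV experiment thus had no counterpart past the threshold here, where the SE of 0.24 was larger than the 0.081 of that experiment.

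In the AAV experiment the values of the 8 enzymes are given as a description, with no test, because this contrast chose them. Hsd17b7 stood at 15.4, 16.5 and 14.6 CPM in the libraries labelled shCtrl. It stood at 23.6, 21.4 and 21.0 CPM in those labelled shAtf3. The groups did not overlap, and the fold was 1.42 (log2 fold change 0.50, SE 0.081). The raw counts behind it were 560 to 795 per library.

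The other 7 enzymes did not share this direction as a group. Cyp51 was at 17.9, 17.9 and 17.8 CPM in the libraries labelled shCtrl and at 14.2, 16.5 and 15.5 CPM in those labelled shAtf3 (log2 fold change -0.22, SE 0.079). Lss was at 3.02, 3.11 and 3.03 CPM against 2.82, 2.12 and 2.92 CPM (log2 fold change -0.22, SE 0.15), and without replicate 2 labelled shAtf3 its log2 fold change was -0.081. For both, all libraries labelled shAtf3 lay below all labelled shCtrl, so that these steps, which come earlier in the route than Hsd17b7, had values on the other side. Beside Hsd17b7, for which the family was chosen, groups that did not overlap were thus found for 2 of 7, and 18.4% of all 15225 genes tested were of that kind. Nothing is read from this count, since the contrast is the one that chose the family.

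Sqle had its highest value, 3.36 CPM, in replicate 1 labelled shCtrl, and stood at 2.28 and 1.91 CPM in the other 2 and at 1.48, 2.02 and 1.80 CPM in the libraries labelled shAtf3. The groups overlapped (log2 fold change -0.52, SE 0.23), and without that one library the log2 fold change was -0.25. Its raw counts were 50 to 139 per library. Hmgcs1 ranged from 39.2 to 54.7 CPM in the libraries labelled shCtrl and from 49.1 to 53.0 CPM in those labelled shAtf3 (log2 fold change 0.14, SE 0.11). That value was 0.27 without replicate 1 labelled shCtrl and 0.029 without replicate 3 of the same group. Fdft1 ran the other way across the libraries labelled shCtrl, at 49.8, 54.8 and 70.03 CPM in replicates 1 to 3 where Hmgcs1 had 54.7, 46.4 and 39.2 CPM. Its log2 fold change was 0.13, and 0.031 or 0.29 without replicate 1 or 3 of these libraries. Idi1 and Fdps had log2 fold changes of 0.043 and -0.057, and the sign of each rested on 1 library, with -0.015 for Idi1 without replicate 2 labelled shCtrl and 0.015 for Fdps without replicate 2 labelled shAtf3. The median over the 8 was -0.0067, beside -0.0029 over all genes tested, so 4 enzymes had higher and 4 lower values.

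**Figure D2:**
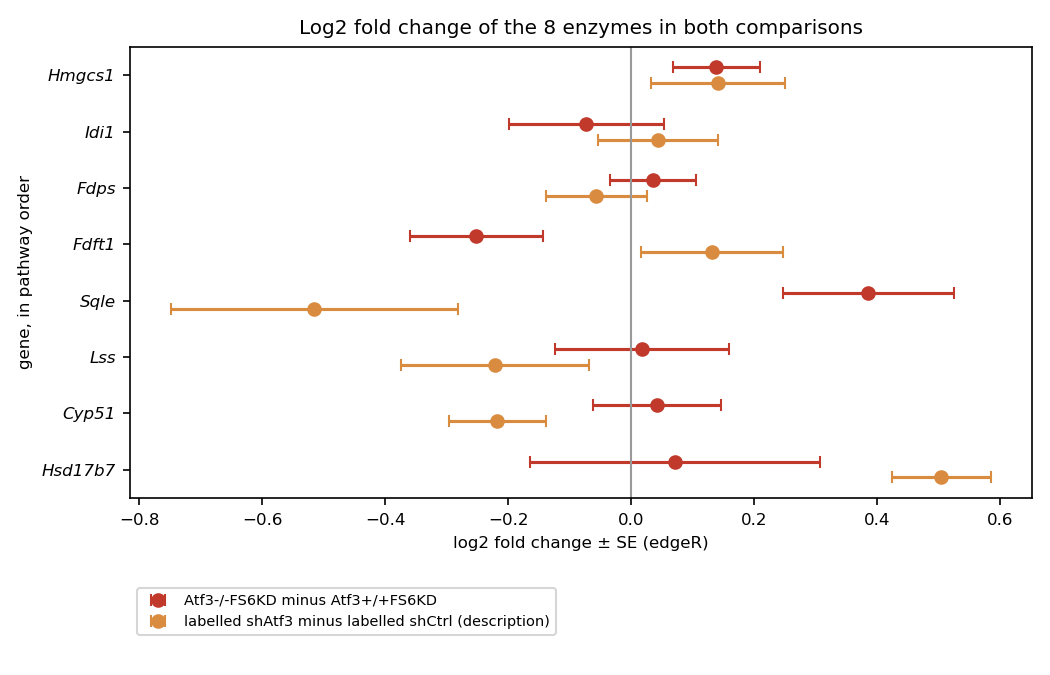
Log2 fold change (horizontal axis) with its SE for the 8 enzymes in pathway order (vertical axis); red points compare Atf3-/-FS6KD with Atf3+/+FS6KD (n = 4 each), orange points the libraries labelled shAtf3 with those labelled shCtrl (n = 3 each). Hsd17b7 lies at 0.072 in the first and 0.50 in the second comparison, and Sqle at 0.39 and -0.52.

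Sqle thus had log2 fold changes of 0.39 and -0.52 in the 2 experiments. The difference between them was not tested, since the second contrast had a part in choosing the genes. The tables were scaled separately, and with that limit the level of Hsd17b7 was at most 23.6 CPM in the AAV libraries and at least 24.1 CPM in the knockout libraries. Cyp51 was at most 17.93 CPM and at least 17.94 CPM in them, and the ranges of the other 6 enzymes overlapped between the experiments.

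Markers of other cells differed in value between the same groups. All 8 fibroblast markers had lower values in the libraries labelled shAtf3, 4 of them at an adjusted p below 0.05 in edgeR, and their summed level was 2337 to 3201 CPM in the libraries labelled shCtrl and 1740.1 to 1825 CPM in those labelled shAtf3. Across all genes, 0.539% passed this threshold and 0.453% did so with lower values. The summed cardiomyocyte markers were 57414 to 65499.9 CPM and 63013 to 67940.1 CPM, with 8 of 8 higher in value and 0 past the threshold, 1 of them at an unadjusted p below 0.05. Between the genotypes the cardiomyocyte sums overlapped, with 62101 to 75629 CPM in Atf3+/+FS6KD. The libraries labelled Atf3-/-FS6KD had 51620 to 69502 CPM, with 7 of 8 markers lower in value and 0 past the threshold. In the knockout experiment the fibroblast sum was 1695 to 2036 CPM in Atf3+/+FS6KD and 2012 to 2744 CPM in the libraries labelled Atf3-/-FS6KD. Of these markers, 8 of 8 were higher in value, 6 at an unadjusted p below 0.05 and 0 past the threshold. Over all genes, 844 of 15592 had such a p and higher values. The summed macrophage markers were 273 to 293 CPM in the libraries labelled shCtrl and 252 to 254 CPM in those labelled shAtf3, and 172 to 223 CPM in Atf3+/+FS6KD and 184 to 281 CPM in the libraries labelled Atf3-/-FS6KD. Of the 6 adipocyte markers, Adipoq, Plin1, Cidec and Lep were at or below 0.301 CPM in all 14 libraries. The adipocyte sum, 5601 to 5928 CPM in Atf3+/+FS6KD and 4789 to 5362 CPM in the libraries labelled Atf3-/-FS6KD, was therefore almost all Lpl and Fabp4, which heart muscle and endothelium also express, and it overlapped between the AAV groups. The atrial sum was 264, 778 and 787 CPM over the libraries labelled shCtrl, from lowest to highest, and 255 to 338 CPM in those labelled shAtf3, so that only the lowest of the former lay in the range of the latter. Summed markers of endothelium, lymphocytes, erythrocytes, and smooth muscle with pericytes overlapped between the groups of both experiments, as did the atrial sum in the knockout experiment, and no marker of any list other than the fibroblast list passed the threshold in edgeR. Of the markers of steroid-making cells, Cyp11a1 stayed at or below 0.385 CPM and Hsd3b1 at or below 0.333 CPM in all 14 libraries, while Star, which heart cells can also express, was at 2.46 to 8.53 CPM. Star had a log2 fold change of 0.81 in the knockout comparison, with an unadjusted p below 0.05 and not past the threshold, and of -0.057 in the AAV comparison. In bulk tissue, fewer cells of a type and less RNA per cell cannot be told apart, and the part of the cell makeup in the values of the 8 enzymes and of the wider pathway was not tested.

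Replicates of a group also differed, and the enzymes could be compared by how they deviated together. Over the 14 libraries, with each group mean removed, Hmgcs1 and Sqle deviated most alike (r = 0.81), with 0.76 in the 8 knockout libraries and 0.83 in the 6 AAV libraries. Without replicate 1 labelled shCtrl that r was 0.64, the lowest over the alternatives. Idi1 had r = 0.58 with Hmgcs1 and 0.56 with Sqle, which became 0.32 and 0.40 without Atf3+/+FS6KD replicate 4. Cyp51 was the gene nearest to the mean of the other 7 (r = 0.71), but its pairs differed between the experiments. It had r = 0.54 with Fdps and 0.75 with Lss in the knockout libraries, and -0.91 and -0.74 in the AAV libraries. Atf3+/+FS6KD replicate 4 had the highest values of its group for Hmgcs1, Idi1, Fdps, Sqle, Lss and Cyp51 at once. These points share libraries, depth and scaling, and they are a description of 14 hearts.

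Hsd17b7 and Fdft1 had values below 0 with the mean of the rest. Hsd17b7 had r = -0.029 with the mean of the other 7, and between -0.15 and 0.35 with each of them. Without Atf3+/+FS6KD replicate 3 that value was 0.35, and over all 16 alternatives it lay between -0.19 and 0.35. Fdft1 had r = -0.32 with the mean of the other 7, -0.62 with Hmgcs1 and -0.59 with Sqle. Those values were -0.34 and -0.25 in the knockout libraries and -0.87 and -0.88 in the AAV libraries, that is, closer to -1 in the latter. Without replicate 3 labelled shCtrl the r of Fdft1 was -0.13 with the mean, -0.34 with Hmgcs1 and -0.39 with Sqle. The median over the 28 pairs was 0.20, and 0.035 without Atf3+/+FS6KD replicate 4, so most of it rested on that library.

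**Figure D3:**
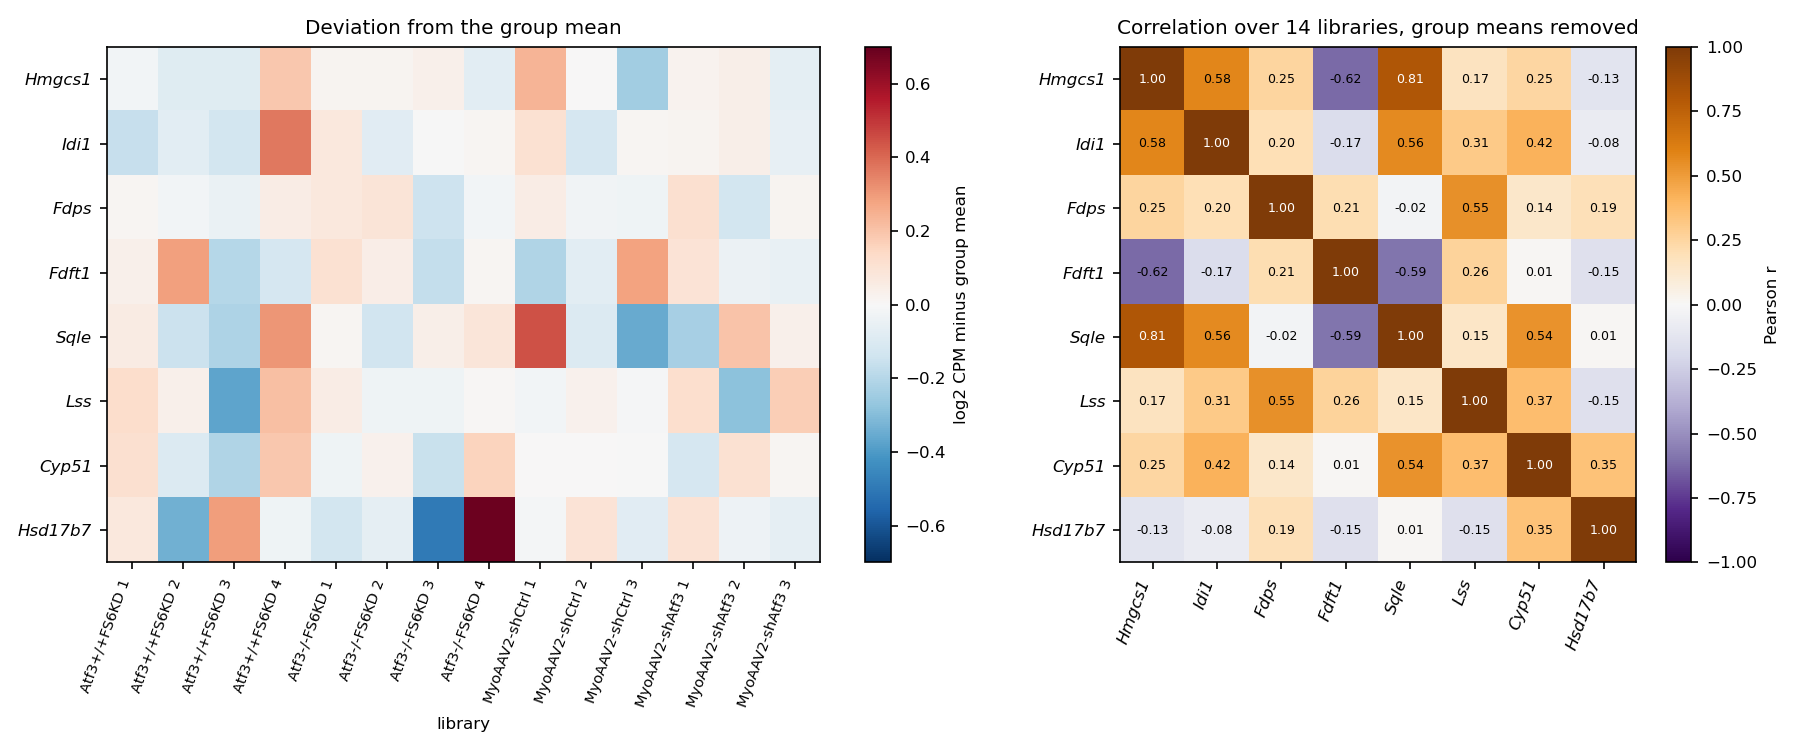
Left, log2 CPM minus the group mean (colour) for the 8 enzymes (rows) in each of the 14 libraries (columns); right, Pearson r of these deviations for every pair of enzymes. Hmgcs1, Idi1 and Sqle form a block of r from 0.56 to 0.81, and the row of Hsd17b7 holds values from -0.15 to 0.35.

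Some of the enzymes share exonic sequence with other genes. Fdft1 overlaps Ctsb, which encodes the protease cathepsin B, on the opposite strand over 774 exonic bases in GENCODE M21. Ctsb was at 610.0 to 704.3 CPM, far above Fdft1, and counts that were not whole were deposited for Fdft1 in 7 of 14 libraries. This was not particular to Fdft1. Such counts were also deposited for Lss (6 of 8 knockout and 1 of 6 AAV libraries) and Idi1 (2 of 8 and 2 of 6). No source used here says if reads were counted by strand, and the level of Fdft1 is uncertain to that extent. Ctsb had log2 fold changes of -0.012 (SE 0.053, adjusted p 0.956 in edgeR) and -0.084 (SE 0.058, adjusted p 0.591 in edgeR) in the knockout and AAV comparisons, and r = -0.33 with Fdft1 over the 14 libraries. Fdps, Idi1 and Fdft1 also have processed pseudogenes of 95.1% to 100% identity in the annotation, none of which is listed in the tables under that name, so the levels of these 3 enzymes are uncertain. Fdps shares 1124 exonic bases on its own strand with the protein-coding model Gm43738, the longest overlap of the family, which the tables do not list under that name. Shorter overlaps on the opposite strand were found for Hmgcs1 (557 bases, Gm48342), Lss (381 bases, 4930483K19Rik), Idi1 (323 bases, Gm48574) and Cyp51 (166 bases, Akap9). The limit on counting by strand holds for their levels too. No such relative or overlap was found for Hsd17b7 or Sqle.

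The gene of Hsd17b7 occupies chr1:169949535-169969241 (GRCm38, minus strand), on the chromosome that also carries Atf3, 21.2 Mb away. Genes within 1 Mb of it were examined beside it. On the AAV side 11 were tested, of which 0 passed the threshold and 1, Olfml2b, had an unadjusted p below 0.05 with lower values (log2 fold change -0.67, SE 0.15, adjusted p 0.121 in edgeR), beside 12.7% of all genes. In the knockout comparison 13 were tested, of which 0 passed. At an unadjusted p below 0.05 with higher values stood 3, Rgs4, Olfml2b and Fcgr2b, beside 844 of all 15592 genes. These 3 names were taken after their values were seen. The nearest tested gene in both experiments, Ddr2, a collagen receptor, lies 3066 bases away at its nearer end and had log2 fold changes of 0.058 (SE 0.094) and -0.15 (SE 0.11).

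The wider pathway was read from lists of 76 further genes, of which 71 passed the filter in the knockout and 70 in the AAV experiment. In the knockout comparison 0 of the 71 passed the threshold in edgeR, with 4 higher and 1 lower at an unadjusted p below 0.05, beside 10.1% of all genes. DESeq2 called 1, Ch25h, which passed the filter only through the libraries labelled Atf3-/-FS6KD, where it was higher. In the AAV comparison 1 of the 70 passed, with lower values, beside 0.453% of all genes with lower values and 0.539% in either direction. This was Scd1, the stearoyl-CoA desaturase that makes monounsaturated fatty acids under SREBP-1. It was at 27.2 ± 1.92 CPM in the libraries labelled shCtrl and 19.7 ± 0.59 CPM in those labelled shAtf3 (SD, n = 3 each), a log2 difference of -0.47 (SE 0.076, adjusted p 0.0402 in edgeR). Its adjusted p ranged from 0.000438 to 0.205 over 14 alternatives and passed in 8 of them, being lost with the replicate block and without any one of the libraries other than replicate 3 labelled shCtrl. At an unadjusted p below 0.05, 14 of the 70 had lower and 2 higher values, beside 7.65% of all genes with lower values. In the same libraries 8 of 8 fibroblast markers (median log2 fold change -0.67) and 7 of 8 macrophage markers (median -0.19) had lower values.

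**Figure D4:**
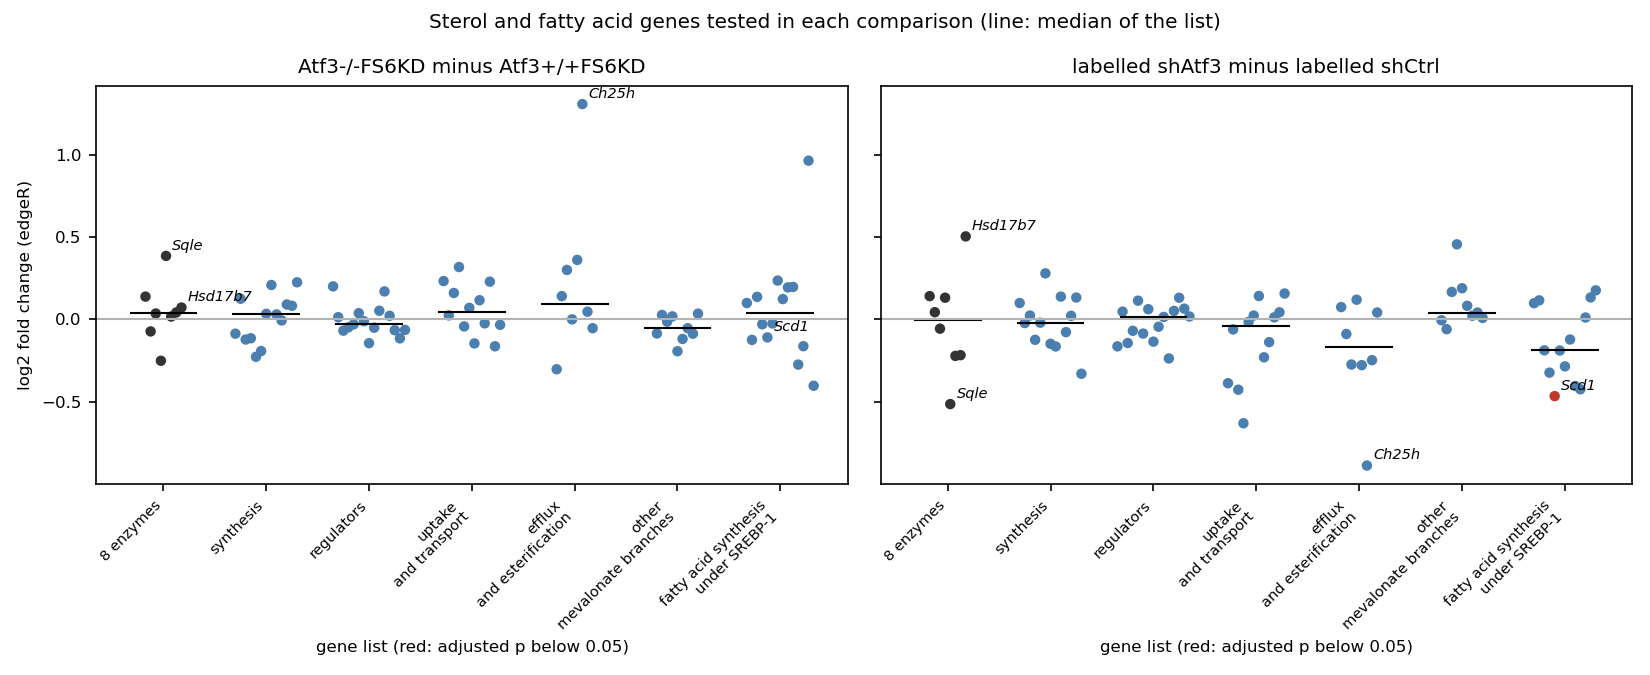
Log2 fold change (vertical axis) of the 8 enzymes and of the tested genes of 6 further lists, in the knockout comparison (left) and the AAV comparison (right); each point is 1 gene, black lines are medians, and red marks an adjusted p below 0.05 among genes other than the 8. In the right panel the medians of the fatty acid and efflux lists lie at -0.19 and -0.17 and those of the other lists between -0.038 and 0.041, and Scd1 at -0.47 is the one red point.

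Among the other synthesis genes, 0 of 13 passed in either comparison, with 1 and 0 at an unadjusted p below 0.05, beside 10.1% and 12.7% of all genes. Msmo1, the methyl sterol oxidase that works between Cyp51 and Hsd17b7, stood at 8.48 ± 0.73 CPM in Atf3+/+FS6KD and 9.83 ± 0.35 CPM in the libraries labelled Atf3-/-FS6KD (SD, n = 4 each), a log2 difference of 0.21 (SE 0.084, adjusted p 0.459 in edgeR), with 0.31 within replicates 1 and 2 and 0.12 within replicates 3 and 4. Mvd, the mevalonate diphosphate decarboxylase, had a log2 fold change of -0.23 (SE 0.14) in the knockout comparison, and -0.15 without Atf3-/-FS6KD replicate 2. On the AAV side Lbr (log2 fold change -0.15, SE 0.070) and Tm7sf2 (0.28, SE 0.16), which both encode sterol reductases, were among the smallest p of this list, and Tm7sf2 was at 0.17 without replicate 2 labelled shCtrl. The medians of the list were 0.030 and -0.020.

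Of the regulators, 0 of 15 passed the threshold in edgeR in either comparison. Srebf2 was at 39.1 ± 7.07 CPM and 44.99 ± 4.51 CPM in the 2 genotypes (SD, n = 4 each), a log2 difference of 0.20 (SE 0.13, adjusted p 0.618 in edgeR) and had -0.16 (SE 0.075, adjusted p 0.405 in edgeR) in the AAV comparison. Without Atf3+/+FS6KD replicate 4 the knockout value of Srebf2 was 0.33, and without replicate 2 it was 0.13. Erlin1, a membrane protein of the endoplasmic reticulum, had 0.17 (SE 0.12) and -0.24 (SE 0.10), the former being 0.10 without Atf3-/-FS6KD replicate 4. Rnf139, a ubiquitin ligase of the endoplasmic reticulum, had 0.13 (SE 0.063) in the AAV comparison. At an unadjusted p below 0.05 stood 0 of the 15 in the knockout comparison and 1, Erlin1, in the AAV comparison, beside 10.1% and 12.7% of all genes.

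Uptake and transport genes were 12 in each comparison, with 0 past the threshold in edgeR and 1 at an unadjusted p below 0.05 in the knockout comparison, beside 10.1% of all genes. In the AAV comparison, 3 of the 12 had an unadjusted p below 0.05, all with lower values and groups that did not overlap. Of all genes, 7.65% had such a p and lower values, and 1514 of 15225 had lower values without overlap. Among the 3 were Lrp1, a lipoprotein receptor (log2 fold change -0.43, SE 0.086, adjusted p 0.0799 in edgeR), and Npc2, which hands cholesterol on in the lysosome (-0.23, SE 0.060, adjusted p 0.167). Lrp1 passed in 3 of 14 alternatives, over which its adjusted p ranged from 0.000474 to 0.343. In the knockout comparison the smallest p belonged to Stard4, a sterol carrier (0.23, SE 0.083, adjusted p 0.423 in edgeR, groups without overlap), Stard3 (-0.16, SE 0.094) and Npc2 (0.12, SE 0.072). Scaling by library size alone gave -0.10 for Stard3 and 0.18 for Npc2, which was at 0.062 within replicates 3 and 4. The medians were 0.047 and -0.038.

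Of 8 genes of efflux and esterification, 0 passed in edgeR in either comparison, with 2 higher in the knockout and 4 lower in the AAV comparison at an unadjusted p below 0.05. Over all genes this held for 10.1% in the knockout comparison, in either direction, and for 7.65% with lower values in the AAV comparison. Ch25h, which makes the oxysterol 25-hydroxycholesterol, stood at 0.605 ± 0.097 CPM in Atf3+/+FS6KD and 1.53 ± 0.42 CPM in the libraries labelled Atf3-/-FS6KD with groups that did not overlap (SD, n = 4 each), a log2 difference of 1.31 (SE 0.25, adjusted p 0.248 in edgeR). Its adjusted p was 0.00341 in DESeq2 and up to 0.813 in the other alternatives. The AAV libraries had it at 1.08 ± 0.28 and 0.586 ± 0.17 CPM (SD, n = 3 each), a log2 difference of -0.89 (SE 0.29, adjusted p 0.257 in edgeR). In each experiment Ch25h passed the filter of 1 CPM only through the group where it was higher. All libraries of Atf3+/+FS6KD and all labelled shAtf3 lay below 1 CPM. Its differences, its lack of overlap and its DESeq2 value are thus a description near the floor. Apoe, the apolipoprotein that takes up exported cholesterol, had 0.36 (SE 0.11, adjusted p 0.383) and -0.28 (SE 0.072, adjusted p 0.168). In the AAV comparison Apoe passed in 1 of 14 alternatives, DESeq2 (adjusted p 0.0306), with up to 0.444 in the others. Soat1, which esterifies cholesterol, had 0.30 (SE 0.15) in the knockout comparison, with 0.46 within replicates 1 and 2 and 0.15 within replicates 3 and 4, and Cyp27a1, the sterol hydroxylase, had -0.25 (SE 0.085) in the AAV comparison. With the limit given for Ch25h, its signs and those of Apoe in each experiment were those of the fibroblast markers and of 7 of 8 macrophage markers. The medians over the 8 macrophage markers were 0.29 in the knockout and -0.19 in the AAV comparison. Whether the difference between the experiments holds was not tested.

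The branches of mevalonate that lead to ubiquinone, dolichol and prenyl groups had 9 tested genes and 0 past the threshold in edgeR, with 1 lower in the knockout and 2 higher in the AAV comparison at an unadjusted p below 0.05. Over all genes, in either direction, the shares were 10.1% and 12.7%. Pdss1 and Pdss2 encode the 2 subunits that build the ubiquinone side chain. On the AAV side the log2 fold change of Pdss1 was 0.46 (SE 0.13, adjusted p 0.199 in edgeR), with higher values in all libraries labelled shAtf3, and Pdss2 had 0.19 (SE 0.083, adjusted p 0.386). Pdss1 passed in 2 of 14 alternatives, with an adjusted p of 0.0267 in DESeq2 and 0.0359 with no filter on low counts, and its adjusted p was up to 0.450 in the others. In the knockout comparison Pdss2 had -0.19 (SE 0.081, adjusted p 0.471), Ggps1 -0.086 (SE 0.072) and Coq2 -0.12 (SE 0.10). Ggps1 changed sign to 0.020 within replicates 3 and 4, and Coq2 was at -0.047 without Atf3+/+FS6KD replicate 2. Nus1, of dolichol synthesis, had 0.17 (SE 0.085) in the AAV comparison and 0.097 without replicate 3 labelled shCtrl, and Pdss2 had 0.12 there without replicate 2 labelled shAtf3. The medians were -0.054 and 0.041.

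Fatty acid genes under SREBP-1 served as the neighbouring branch. In the AAV comparison, 1 of 13 passed in edgeR, Scd1, with lower values, beside 0.453% of all genes. At an unadjusted p below 0.05, 6 had lower values, beside 7.65% of all genes. The desaturases Fads1 (log2 fold change -0.41, SE 0.085, adjusted p 0.0945) and Fads2 (-0.43, SE 0.11, adjusted p 0.161) were among these 6. Fads1 passed in 3 of 14 alternatives, over which its adjusted p ranged from 0.0116 in DESeq2 to 0.375. Fads2 passed in 1 of them, with an adjusted p from 0.0496 to 0.401. The fibroblast and macrophage markers had lower values in the same libraries, and their part in this list was not tested. The median was -0.19, beside -0.0029 over all genes and -0.0067 over the 8 enzymes. In the knockout comparison 0 of 14 passed, 0 of them at an unadjusted p below 0.05, and the median was 0.037, with Acly at 0.14 (SE 0.071), Acss2 at -0.16 (SE 0.088) and Pnpla3 at 0.96 (SE 0.54). Over 19 alternatives these values ranged from 0.034 to 0.24 for Acly, from -0.27 to -0.055 for Acss2 and from 0.18 to 2.05 for Pnpla3.

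Genes that varied most like the 8 enzymes were sought among 13373 genes above 1 log2 CPM, by the correlation of their deviations from the group means with the mean deviation of the 8 over the 14 libraries. The nearest 10 were Thap6 (r = 0.91), St6galnac3 (0.89), Nfia (0.87), Gja1 (0.87), Acvr2a (0.87), Camk2d (0.87), Plagl1 (0.86), Bach2 (0.85), Cpsf6 (0.85) and Dpysl4_1 (0.85). The median over all other genes was 0.012. Of 65 further genes of the lists, 1 stood among the first 100, the citrate lyase Acly (r = 0.73). Srebf2 had r = 0.55 and Msmo1 0.53. The first 10 were not stable, as between 2 and 9 of them returned when 1 library was left out.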

How the data were processed

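The authors extracted RNA from whole hearts with a fibrous tissue kit and made stranded, poly(A)-selected libraries. The submitters' processing notes name featureCounts 2.0.0 and GRCm38.p6, and the aligner is not given in the sources used here. The authors' deposited tables, 1 per experiment, hold an estimated count per gene and library with no normalization, since 19.3% to 24.4% of each library's values had a fraction. They were rounded to whole numbers, and 0 columns of other samples were left out. The fixed design had assumed whole counts, and the count test was kept.

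Genes above 1 CPM in at least 1 library were kept, the filter the study states, and tested within each experiment, with no covariate, by the quasi-likelihood F-test after TMM scaling (edgeR 4.0.16, R 4.3.3, Benjamini-Hochberg adjusted p below 0.05). All 8 enzymes passed the filter in both. The study states biological replicates. Deviations and likeness used log2 CPM with a prior count of 2. RPKM divides CPM by exon length in GENCODE M21. Shared sequence was sought with blastn 2.17.0. The fit was tested on simulated data. Alternatives were other size factors, DESeq2 1.42.0, limma 3.58.1, other filters, a replicate block, depth batches and each library left out. Replicates of a group differed beyond sampling noise, with a chi-square per gene of 6.85 to 92.5.

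The enzymes and the gene lists were chosen with earlier results of these data known. Named were the 8 enzymes, Atf3 and Ndufs6, each other listed gene past the threshold, the 3 smallest p per list and comparison, and the 10 genes most like the mean of the 8. Some genes that this rule names are not reported here. Further genes were named where they share sequence with a member, lie near Hsd17b7 or mark a cell type. Markers of lymphocytes, adipocytes, endothelium, erythrocytes, macrophages, smooth muscle and atria were also summed.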

Additional observations from a re-analysis of the deposited data

Results flagged for a closer look

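Groups of 4 libraries were examined for a single library far from the others, in 78 groups of named genes, of which chance flags about 1 in 20. Atf3+/+FS6KD replicate 4 stood apart for 3 genes, with Idi1 at 9.36 CPM against 6.89 CPM in the next library, Msmo1 at 9.58 CPM against 8.18 CPM and Fads2 at 11.6 CPM against 8.50 CPM. Atf3 itself stood apart in Atf3+/+FS6KD replicate 1, at 25.8 CPM against 6.91 CPM in the next library. No cause was tested.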

How the results depend on the processing

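Over the 19 alternatives of the knockout comparison, 0 of the 8 enzymes passed the threshold in each, and the median of their log2 fold changes lay between -0.0045 and 0.099. In the AAV comparison that median lay between -0.047 and 0.024 over 14 alternatives. The sign of small log2 fold changes in the knockout comparison changed within replicates 1 and 2 for Idi1 (0.067) and Lss (-0.037) and within replicates 3 and 4 for Fdps (-0.051). It also changed for 4 enzymes with 1 library left out, over which Hsd17b7 ranged from -0.22 to 0.22, Lss from -0.10 to 0.095, Cyp51 from -0.028 to 0.11 and Idi1 from -0.13 to 0.071. None of these passed the threshold, and the cause was not tested.

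Further listed genes past the threshold in the knockout comparison were 1 with DESeq2, and 0 in the other 18 alternatives. In the AAV comparison they were 5 with DESeq2, 4 with no filter on low counts and 0 with the replicate block, and 0 to 4 with 1 library left out, beside 1 as reported. Over all genes, the knockout count of 0 became 208 with DESeq2, 2 with no filter, 8 within replicates 3 and 4 and 0 to 15 with 1 library left out. The AAV count of 82 became 308, 304, 20 with the replicate block and 1 to 285 with 1 library left out. Whether replicate numbers pair the samples could not be decided, since low correlations do not exclude a pairing. Same-numbered libraries correlated at 0.0064 to 0.14 in the knockout and -0.00037 to 0.15 in the AAV experiment. Libraries of different number correlated at -0.24 to 0.19 and -0.18 to 0.089. In neither experiment did every sample correlate best with its own number. With the replicate block the knockout median of the 8 was 0.033 and that of the AAV comparison -0.0072. No call on the 8 changed in the knockout comparison, the only one in which they were tested. Scaling by library size alone moved the median of all genes to 0.062 and -0.043. Counts of 50 to 139 limit Sqle and 66 to 125 limit Lss in the AAV libraries.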
